A study of Mus musculus with 2 samples.

Results

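The IL-1 receptor family cluster of mouse chromosome 1 was described by the binding of Gata3, the transcription factor that directs TH2 differentiation. Its members were the 6 protein-coding genes Il1r2, Il1r1, Il1rl2, Il1rl1, Il18r1 and Il18rap, of 21938 protein-coding genes on chromosomes 1 to 19, X and Y. They were chosen by name and place in the GENCODE M21 annotation of GRCm38. On chromosome 1, all on the plus strand, Il1r2 runs from 40074079 to 40125231, Il1r1 from 40225080 to 40317257 and Il1rl2 from 40324610 to 40367562. Il1rl1 follows from 40429570 to 40465415, Il18r1 from 40465552 to 40500854 and Il18rap from 40515362 to 40551705. Each gene was taken with 20 kb either side of its gene body, here called its territory. The 6 territories covered 435.772 kb together in 3 separate blocks. The first was Il1r2 alone, the second Il1r1 and Il1rl2, and the third Il1rl1, Il18r1 and Il18rap, with overlap between neighbours inside a block.

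Gata3 ChIP-seq was measured in 2 libraries of 1 condition, TH2 cells made in vitro, with an anti-GATA3 antibody. According to the study's methods, TH2 cultures were grown from splenic naive CD4+ T cells with IL-4 and an antibody neutralising IFN-γ. No second condition, input or IgG library was analysed here, so reads were compared between places of the genome and between the libraries. The labels used here gave no strain, genotype, sex or age, and did not say whether the libraries came from separate mice or cultures. The extraction text of the labels named ILC2, another type 2 lymphocyte, where the other fields and the study's methods named TH2 cells. Depth was 40526613 deposited reads in library 1 and 24970952 in library 2. The read names carried a different instrument in each library, so a difference between libraries and a difference between sequencing runs cannot be told apart. Levels are given as RPM, the reads in a window or region per 1000000 reads of the library. As a check of the label, the T helper 2 marker loci Il4, Il5, Il13, Gata3 and Ccr8 each had a peak in both libraries. The lowest read density among them, that of Il5 in library 2, was above 98.97% of genes. Il4 and Il13 had the same tallest shared peak, so they do not count separately. No ILC2 library was compared, so these loci cannot tell TH2 cells from ILC2. Of the 3 B cell loci 2 had such a peak, and so did 2 of the 3 myeloid loci, near the 54.8% of all genes with a shared peak within 20 kb, so a peak at a marker locus did not by itself name the cell. Of the 4 T cell loci 3 had one, among them Cd4 with 2.3 and 2.60 RPM per kb, Cd3e with 1.49 and 1.41 and Cd3g with 0.928 and 0.814. Cd28 had 0 shared peaks and 0.00588 and 0.00249 RPM per kb, a near absence of reads over its whole territory, so its value was not read as a level of binding.

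The family encodes cell-surface receptors, and in those that signal a cytoplasmic TIR domain recruits the adaptor Myd88 and leads to NF-κB activation. Il1rl1 encodes ST2, the receptor for the alarmin IL-33, which TH2 cells, ILC2 and mast cells carry. Il18r1 and Il18rap encode the ligand-binding and accessory chains of the IL-18 receptor, best known from TH1 and NK cells. Il1r1 is the signalling receptor of IL-1, Il1r2 a decoy that binds IL-1 without signalling, and Il1rl2 the receptor for the IL-36 cytokines. Il1rl1 is transcribed from a distal and a proximal promoter, the former being known from haematopoietic cells. Gata3 binds the DNA motif called WGATAR. It was searched on both strands with the letters AGATAA or AGATAG, and with the letters TGATAA or TGATAG.

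Both Il1rl1 promoters are shown because they differed in this motif and in their reads. The sequences are from RefSeq on GRCm38.p6, from 250 bases before to 50 after each start, and all 6 genes matched the RefSeq promoter table. Capitals mark WGATAR.
Il1rl1 distal promoter, chr1:40429320-40429619, plus strand: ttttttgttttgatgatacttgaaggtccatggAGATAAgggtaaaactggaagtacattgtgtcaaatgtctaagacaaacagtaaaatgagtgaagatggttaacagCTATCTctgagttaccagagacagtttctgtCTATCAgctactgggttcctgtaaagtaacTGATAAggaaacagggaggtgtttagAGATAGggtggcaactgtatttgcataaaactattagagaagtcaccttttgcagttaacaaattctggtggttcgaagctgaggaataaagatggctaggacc
Il1rl1 proximal promoter, chr1:40439379-40439678, plus strand: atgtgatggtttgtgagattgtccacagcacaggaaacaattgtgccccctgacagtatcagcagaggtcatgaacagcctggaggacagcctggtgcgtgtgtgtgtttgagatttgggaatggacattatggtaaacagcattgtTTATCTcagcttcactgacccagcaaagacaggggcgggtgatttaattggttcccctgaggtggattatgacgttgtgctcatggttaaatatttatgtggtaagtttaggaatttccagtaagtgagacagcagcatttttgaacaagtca

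The distal promoter held 5 matches and the proximal promoter 1. The 5 matches began 217, 141, 110, 80 and 54 bases before the distal start. Of 32851 mouse promoters in the same table, 29.8% held at least 1 match. Of the 32851, 18, or 0.0548%, held 5 or more, this promoter among them. The cutoff of 5 equals this promoter's own count, the highest among the members' promoters. The share is therefore a description and not a test. Among the other members the Il1r2 and Il18rap promoters held 1 match each, and those of Il1r1, Il1rl2 and Il18r1 held 0. No promoter of the 6 genes held the AP-1 motif, searched as TGACTCA or TGAGTCA. A match is a description of letters and was not taken as a bound site.

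The next sequences are those of 6 peaks described below, 201 bases around the library 1 summit on GRCm38. They are the 3 tallest peaks of the cluster, the pair upstream of Il1rl1 and the peak at the Il1rl2 start. Capitals again mark WGATAR.
Peak 10.8 kb upstream of Il1rl1, chr1:40418650-40418850, plus strand: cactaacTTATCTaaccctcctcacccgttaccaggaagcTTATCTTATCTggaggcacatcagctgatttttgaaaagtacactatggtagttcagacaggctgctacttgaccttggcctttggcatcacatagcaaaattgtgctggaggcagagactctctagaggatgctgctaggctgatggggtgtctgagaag
Peak 2.12 kb upstream of Il1rl1, chr1:40427350-40427550, plus strand: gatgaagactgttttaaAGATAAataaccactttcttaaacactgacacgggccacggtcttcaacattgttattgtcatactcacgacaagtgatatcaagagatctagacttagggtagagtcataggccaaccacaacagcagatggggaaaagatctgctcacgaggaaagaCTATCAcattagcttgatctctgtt
Peak in intron 3 of Il18r1, chr1:40475750-40475950, plus strand: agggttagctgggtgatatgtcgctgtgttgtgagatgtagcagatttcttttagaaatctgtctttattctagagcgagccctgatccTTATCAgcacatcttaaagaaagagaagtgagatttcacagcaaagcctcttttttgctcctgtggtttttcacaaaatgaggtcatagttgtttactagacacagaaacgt
Peak in intron 6 of Il18rap, chr1:40529400-40529600, plus strand: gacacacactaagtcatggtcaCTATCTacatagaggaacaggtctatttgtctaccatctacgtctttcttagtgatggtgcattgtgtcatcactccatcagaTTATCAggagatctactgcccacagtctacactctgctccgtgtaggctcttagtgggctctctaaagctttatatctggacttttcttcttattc
Peak 18.1 kb upstream of Il1r2, chr1:40055900-40056100, plus strand: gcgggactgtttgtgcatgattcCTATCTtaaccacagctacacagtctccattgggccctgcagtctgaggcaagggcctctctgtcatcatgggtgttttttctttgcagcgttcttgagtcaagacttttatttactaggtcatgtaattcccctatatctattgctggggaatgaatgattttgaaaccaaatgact
Peak at the start of Il1rl2, chr1:40324950-40325150, plus strand: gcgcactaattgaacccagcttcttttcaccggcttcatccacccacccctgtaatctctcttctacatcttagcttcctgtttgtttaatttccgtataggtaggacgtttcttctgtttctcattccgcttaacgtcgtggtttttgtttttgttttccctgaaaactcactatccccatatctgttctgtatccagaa

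The sequence 10.8 kb upstream of Il1rl1 held 3 matches, of which 2 overlapped by a shared base. The Il1rl2 start sequence held 0, and those of Il18rap intron 6 and the site 2.12 kb upstream of Il1rl1 held 2 each.

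Across the cluster 16 peaks were shared, that is, called in both libraries with overlapping positions. A peak was a run of 200-bp windows with more reads than the highest of the library, 5-kb and 10-kb means. The threshold was q 0.01 in a one-sided exact Poisson test, adjusted over all windows of the genome that held a read. All 6 members had at least 1 shared peak in their territory, where 54.8% of all protein-coding genes did. Within the gene body 5 of 6 did, Il1r2 being the exception, against 29.4% of genes. Both shares are over genes of any length, while the members' bodies were 35.3 to 92.2 kb long. A longer gene gives a peak more room, and no share among genes of like length was counted for gene bodies. Within 2 kb of the first annotated start of each gene the only member with a shared peak was Il1rl2, and the background there was 11.7%. Of the shared peaks 10 lay in introns, 6 between genes and 0 in exons. Each shared peak had reads from both strands, between 10 and 118 per strand in library 1 and between 7 and 92 in library 2.

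**Figure D1:**
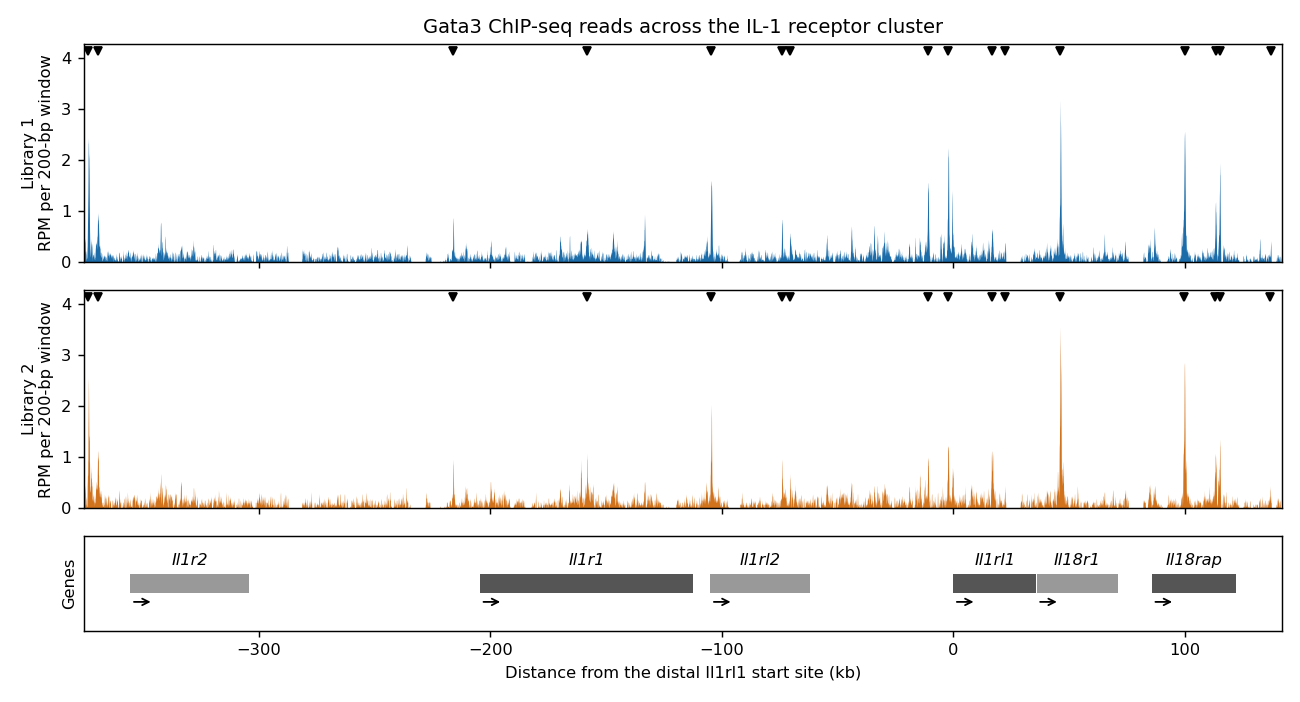
Gata3 ChIP-seq reads across the cluster, as RPM in 200-bp windows, against distance in kb from the distal Il1rl1 start; the upper panel is library 1, the middle panel library 2, and triangles mark the summits of the 16 shared peaks in each library. The tallest peak, in Il18r1, reached 3.18 RPM in library 1 and 3.57 RPM in library 2, and the genes below run from left to right.

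Il1rl1 had the highest read density of the cluster when the territory was counted. Its territory held 2878 reads in library 1 and 1807 in library 2, or 0.937 and 0.955 RPM per kb. This was 2.55-fold and 2.60-fold the mean of each library, above 98.5% and 98.6% of all protein-coding genes. The median gene had 0.500 and 0.488 RPM per kb. Il1rl1 exceeded the next member 1.39-fold in library 1 and 1.31-fold in library 2, and the 95% exact Poisson intervals of the counts did not overlap in either library. These intervals cover counting error only.

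The other members had lower densities, and only the places of Il1rl2 and Il1r1, the lowest of the 6, were the same in both libraries. Il18rap had 0.675 RPM per kb in library 1 and 0.654 in library 2. Il1r2 had 0.675 and 0.728 RPM per kb, and Il18r1 0.629 and 0.710. At the lower end Il1rl2 had 0.578 and 0.625 RPM per kb, and Il1r1 0.568 and 0.604. With each library ranked by itself, the intervals of neighbours below Il1rl1 overlapped. Il1r2 and Il1r1 were not neighbours, and their intervals did not overlap in either library. All 5 nevertheless lay above the median gene, at the 69.4th to the 87.9th percentile in library 1 and the 80.5th to the 93.1st in library 2.

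The place of Il1rl1 in the order depended on the region counted. In the gene body alone Il18rap was highest, with 0.997 RPM per kb in library 1 and 0.999 in library 2. Il18r1 had 0.835 and 0.948 RPM per kb there, and Il1rl1 had 0.603 and 0.659. Il1rl1 therefore stood at 0.605 and 0.660 of the highest member. With 50 kb either side Il18r1 was highest and Il1rl1 stood at 0.923 and 0.922 of it. The 3 pieces of the Il1rl1 territory, separated after these values were seen, showed where its reads lay. The 20 kb upstream had 1.36 and 1.08 RPM per kb, the gene body 0.603 and 0.659, and the 20 kb downstream, nearly all in Il18r1, 1.11 and 1.36. The reads counted for Il1rl1 were thus densest on either side of the gene, and those downstream included the tallest peak of Il18r1.

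**Figure D2:**
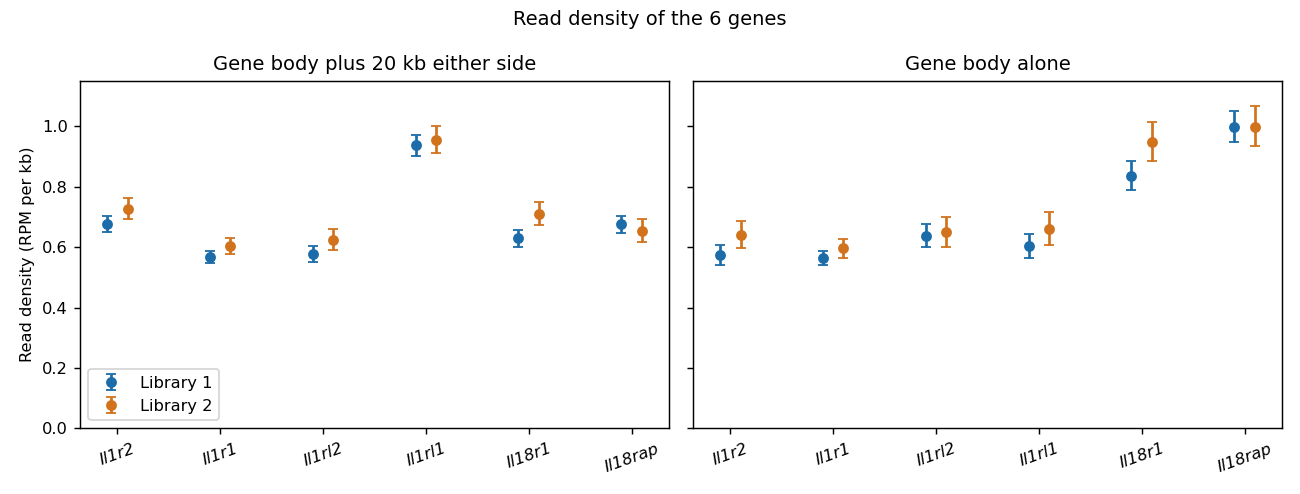
Read density in RPM per kb of the 6 genes in library 1 and library 2, for the gene body plus 20 kb either side (left) and the gene body alone (right); bars are 95% exact Poisson intervals. Il1rl1 is highest on the left, at 0.937 and 0.955, and Il18rap on the right, at 0.997 and 0.999.

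At Il1rl1, the ST2 gene, 5 shared peaks lay in the territory, 2 upstream, 2 in the gene body and 1 downstream, in intron 3 of Il18r1. Among 2212 genes of like length (within 20%), 2.22% had 5 or more. The count was 3 with 10 kb either side or with 100-bp windows, 1 at q 1e-10, as for every member, 1 at a fold of at least 5, and 8 in library 1 alone. The peak left at q 1e-10 and at a fold of at least 5 was that in intron 3 of Il18r1. None of the peaks upstream of or inside Il1rl1 was kept there. Territories overlap, and the whole cluster had 4 shared peaks at q 1e-10. Il18r1 had more, 8 against 5, with 50 kb either side, and Il1r1 had more, 10 against 6, with a 50-kb background. In the gene body alone Il1rl2 and Il18rap had more, 3 each against 2. At least 1 other member had as many as Il1rl1 with 10 kb either side (Il1rl2 and Il18rap, 3 each), with summits within 100 bp (Il18rap, 4), at a fold of at least 5 (Il1r1 and Il18r1, 1 each) and in library 1 alone (Il1r1, 8). Both upstream peaks lay between Il1rl2 and Il1rl1, and in library 1 they were taller than those in the gene. The first had its summit at position 40418750, 10820 bp upstream of the distal start. It had 63 reads in library 1 and 25 in library 2 in its summit window, or 1.56 and 1.0 RPM, at 5.27-fold and 4.25-fold over the background. The second had its summit at 40427450, 2120 bp upstream, with 91 and 31 reads, or 2.25 and 1.24 RPM, at 4.31-fold and 3.60-fold. Its summit, by which peaks were placed, lay just outside the 2 kb that counted as the start. The summits of each were at the same position in both libraries.

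Of the peaks inside Il1rl1, that in intron 7 at 40446400 had 27 and 28 reads, or 0.667 and 1.12 RPM. Its library 2 summit lay at 40446150, so the counts come from summit windows that do not overlap. The call was lost with summits within 100 bp and with 100-bp windows. By these heights the peak was lower than both upstream peaks in library 1 and lay between them in library 2. The other, in intron 10 at 40451950, had 16 and 11 reads, or 0.395 and 0.441 RPM, and stood higher than only 3.77% of all shared peaks. It lay beside a stretch of 6238 bp without any read in either library, from 40452312 to 40458549. In 79.2% of that stretch a 50-base sequence had another copy in the genome, and reads without a unique position had been removed. The peak's background is a mean over windows that reach into this stretch. The peak held 3 WGATAR matches within 100 bp of its library 1 summit and 1 within 100 bp of its library 2 summit.

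The distal start of Il1rl1 carried more reads than the proximal start. In 1 kb around the distal start at 40429570 there were 104 reads in library 1 and 54 in library 2, or 2.57 and 2.16 RPM. This was 7.0-fold and 5.90-fold the library means and above 96.9% and 96.7% of all gene starts. Around the proximal start at 40439627 there were 36 and 25 reads, or 0.889 and 1.0 RPM, above 79.2% and 80.9% of gene starts. The intervals of the distal and proximal windows did not overlap in either library. No shared peak was called at the distal start, since library 2 had no peak there. Library 1 alone had a peak 470 bp upstream of it, with 57 reads or 1.41 RPM at a q of 2.8e-09 in the exact Poisson test, and library 2 had 14 reads or 0.561 RPM in that window.

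**Figure D3:**
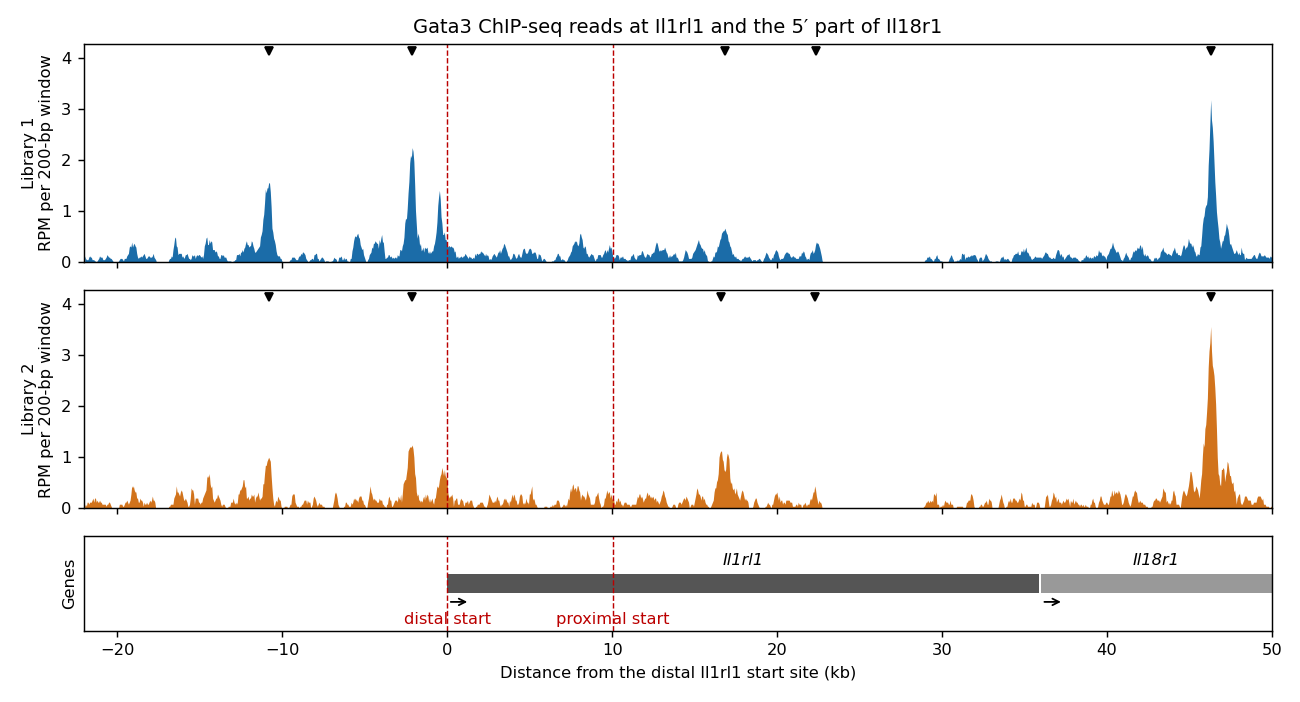
RPM per 200-bp window in library 1 (top) and library 2 (middle) from 22 kb upstream of the distal Il1rl1 start to 50 kb downstream; dashed lines mark the distal and proximal starts and triangles the shared summits. The upstream peaks reach 1.56 and 2.25 RPM in library 1 and 1.0 and 1.24 RPM in library 2, and the peak in Il18r1 3.18 and 3.57 RPM.

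The IL-18 receptor genes held the tallest peaks of the cluster. In intron 3 of Il18r1, 10298 bp downstream of its start, a peak at 40475850 had 129 reads in library 1 and 89 in library 2. This gave 3.18 and 3.57 RPM, at 5.97-fold and 5.02-fold over the background, with q values of 1.9e-51 and 2.1e-29 in the exact Poisson test. It was higher than 97.3% of all shared peaks and had 1 WGATAR match, centred 8.5 bp before the summit. The other 2 shared peaks of the Il18r1 territory were those inside Il1rl1, and 15.3% of genes of like length had 3 or more. Around the start of Il18r1 there were 25 and 12 reads per kb, where the median gene start had 23 and 15.

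Il18rap had 4 shared peaks in its territory, 3 of them in introns, and 6.02% of genes of like length had as many. The tallest, in intron 6 at 40529500, had 104 and 71 reads, or 2.57 and 2.84 RPM, and was higher than 94.8% of all shared peaks. A pair followed in introns 10 and 11. The summit at 40542900 had 1.19 and 1.08 RPM, and the summit at 40544700 had 1.95 and 1.36 RPM. The fourth lay between genes, at 40566700, with 17 and 11 reads, or 0.420 and 0.441 RPM. Around the start of Il18rap itself there were 21 and 9 reads per kb. Library 1 alone had a peak 1088 bp downstream of it, with 28 reads at a q of 3.4e-06 in the exact Poisson test, and library 2 had 7 reads in that window. The 14.507 kb between Il18r1 and Il18rap held 1.12-fold and 1.05-fold the mean density with no shared peak. In that gap 6496 bp had no read in either library, and 55.7% of the 50-base sequences there had another copy in the genome. The first annotated starts of Il18r1 and Il18rap lay between the 25.4th and the 57.7th percentile of gene starts over both libraries, while their introns held the 2 tallest peaks of the cluster. Later starts reached higher, up to 59.3 in library 2 for Il18r1 at 40466006 and to 76.8 and 80.9 for the retained-intron transcript of Il18rap at 40541692, which lies 1208 bp before the intron 10 summit.

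Il1rl2, the IL-36 receptor gene, was the member with a shared peak at its first annotated start. The peak at 40325050, 440 bp downstream of the first annotated start and in intron 1, had 65 and 51 reads, or 1.60 and 2.04 RPM. The 1 kb around that start held 141 and 93 reads, 9.49-fold and 10.2-fold the library means. This was above 98.2% and 98.9% of all gene starts, and its intervals lay above those of the distal Il1rl1 start in library 2 and overlapped them in library 1. It had 3 shared peaks in all, and 18.4% of genes of like length had as many. Further into the gene, the peak in intron 8 at 40355500 had 0.839 and 0.962 RPM and that in intron 9 at 40359150 had 0.568 and 0.681 RPM. The start peak also lay in the territory of Il1r1, whose gene body ended 7.352 kb before that of Il1rl2 began.

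**Figure D4:**
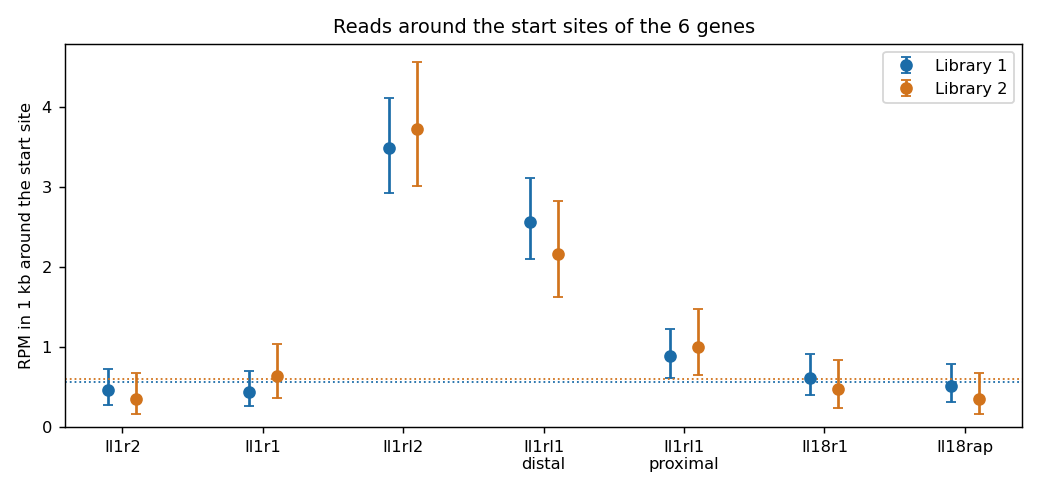
RPM in the 1 kb around the first annotated start of each gene and the proximal start of Il1rl1, in library 1 and library 2; bars are 95% exact Poisson intervals and dotted lines the median of all gene starts, 0.568 and 0.601 RPM. Il1rl2 and the distal Il1rl1 start lie above the other starts in both libraries.

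Of the IL-1 binding receptors, Il1r1 had 1 shared peak in its body, in intron 1 at 40271550, with 27 reads in each library, or 0.667 and 1.08 RPM. The library 2 summit lay at 40271350, so these counts come from windows that do not overlap. That call was lost at q 1e-10, at a fold of at least 5, with 100-bp windows, with summits within 100 bp and with library 1 thinned. Upstream of Il1r1, at 40213550, a peak of 35 and 24 reads stood at 0.864 and 0.962 RPM. It was low in reads but reached 5.91-fold and 6.67-fold over its background, which was 5.92 and 3.60 reads per window. With the Il1rl2 start peak the Il1r1 territory held 3 shared peaks, and 36.6% of genes of like length had 3 or more. Il1r2, the decoy receptor, had 0 shared peaks in its body. Its 2 shared peaks lay upstream, at 40056000 and 40060000. The former had 99 and 64 reads, or 2.44 and 2.56 RPM, and was higher than 94.1% of all shared peaks. The latter had 40 and 28 reads, or 0.988 and 1.12 RPM. Having 2 or more peaks was common, and 42.3% of genes of like length had them. Il1r2 has several annotated starts, and the first, at 40074079, had 19 and 9 reads per kb. The start furthest downstream, at 40085985, had 48 and 33 reads, above 88.3% and 90.0% of gene starts. The RefSeq Il1r2 promoter beside the latter start held the WGATAR match named above, 86 bases before its own start.

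**Figure D5:**
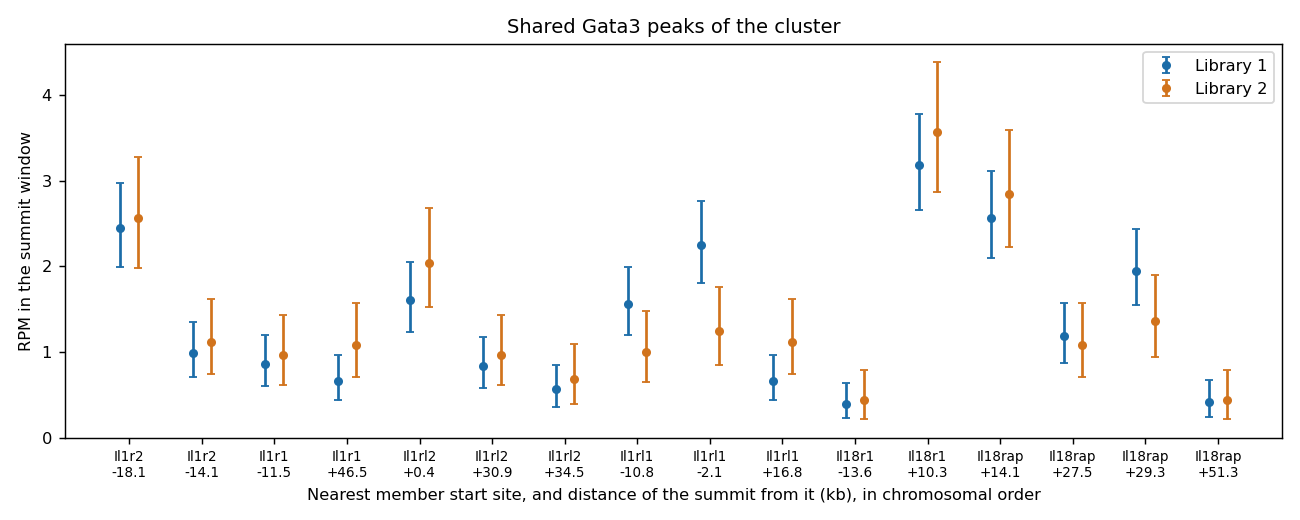
RPM in the summit window of each of the 16 shared peaks in library 1 and library 2, each library at its own summit, in chromosomal order. Labels give the nearest member start and the distance of the library 1 summit from it in kb, and bars are 95% exact Poisson intervals. The summits range from 0.395 to 3.18 RPM in library 1 and from 0.441 to 3.57 RPM in library 2.

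The heights of the 16 peaks were then compared between the libraries, which says how far single peaks repeat in height. Their summits lay within 100 bp of each other in 14 peaks and at the same position in 5. By the lower of the 2 libraries' RPM the cluster peaks had a median of 0.995, against 0.801 over all shared peaks, and 11 of the 16 were above the median of all. The ratio of library 2 to library 1, each in its own summit window, had a median of 1.11 and ran from 0.553 to 1.68, and 12 peaks were higher in library 2. In Il1r1 intron 1 and Il1rl1 intron 7 the summit windows of the libraries did not overlap, and the ratios there were 1.62 and 1.68. Over all 23806 shared peaks of the genome the median ratio was 0.947. The direction turned when reads over the whole peak were counted, with a median ratio of 0.965 in the cluster, 5 of the 16 peaks higher in library 2, and 0.883 over all shared peaks. A two-sided exact binomial test was run on the summit windows, each library at its own summit, and adjusted over all shared peaks. In it 0 of the 16 differed between the libraries, where 0.441% of all shared peaks did. One of them was under 0.05 before adjustment, the peak 2.12 kb upstream of Il1rl1, with an unadjusted p of 0.0037 and an adjusted p of 0.193 in the exact binomial test. This test covers counting error only. When reads over the whole peak were tested in place of the summit window, 4 of the 16 differed, where 15.7% of all shared peaks did. Both peaks upstream of Il1rl1 were lower in library 2, at 0.610 and 0.601 of library 1, with adjusted p of 0.00958 and 0.00174 in the exact binomial test. The peak in Il1rl1 intron 7 was 1.87-fold and that in Il18r1 intron 3 was 1.32-fold higher in library 2, with adjusted p of 0.00142 and 0.0119 in the same exact test. The instrument and depth moved with these differences, and their part was not tested.

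Single-library peaks were mostly those of the deeper library. In the territories 18 peaks were called in library 1 alone and 1 in library 2 alone, the latter in intron 1 of Il1r1 at 40268650 with 18 and 24 reads. The tallest of the 18 was that at the distal Il1rl1 start. Next was a peak in intron 5 of Il1r1 at 40296200, with 38 reads in library 1 and 13 in library 2.

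WGATAR matches lay within 100 bp of 13 of the 16 summits, or 81.25% (95% exact Clopper-Pearson interval 54.4 to 96.0), where 71.0% of all shared summits had one. Of all 201-base windows of the genome 37.8% held a match. The interval of the cluster contains the share of all shared summits. Within 50 bp of the summit 7 of 16, or 43.75%, had a match, and 46.8% of all shared summits did. The nearest matches lay 4.5 bp from the summit upstream of Il1r1, 5.5 bp from that beyond Il18rap, 7.5 bp in Il18rap intron 6 and 8.5 bp in Il18r1 intron 3. The 3 summits without a match were those 14.1 kb upstream of Il1r2, at the Il1rl2 start and in Il1rl2 intron 9. At the library 2 summits the peak in Il1rl2 intron 9 had 1 match and that in Il1r1 intron 1 had 0. An AP-1 match lay at 3 summits, or 18.75%, 18.1 kb upstream of Il1r2, in Il1rl2 intron 9 and in Il18rap intron 10, and 12.3% of all shared summits had one.

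The space between the genes was uneven. Over 2176 adjoining windows of 200 bp, laid across the territories on a fixed grid and not centred on summits, the reads of the libraries had a Pearson correlation of 0.865 and a Spearman correlation of 0.623, a description of windows that share their base composition and mappability. The median window had 4 reads in library 1 and 2 in library 2, the highest 101 and 82, and 246 windows had 0 in both. The 62.007 kb between Il1rl2 and Il1rl1 held 2.49-fold and 2.23-fold the mean read density and 2 shared peaks, both close to Il1rl1. The 99.848 kb between Il1r2 and Il1r1 held 1.13-fold and 1.09-fold and 1 shared peak. Positions that a 50-base read can reach uniquely made up 90.9% of the Il1rl1 territory, 85.7% of that of Il18r1 and 85.5% of that of Il18rap, and between 92.8% and 95% of the others. Counted per unique position, Il1rl1 still stood 1.31-fold and 1.27-fold above the next member.

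Genes of the same pathway elsewhere in the genome were read against the cluster. All 4 family receptors outside it had a shared peak in their territory, beside 54.8% of all genes, of which Sigirr, a negative regulator of the family, had the tallest at 2.3 and 1.72 RPM. Il1rap, the accessory chain that ST2, IL-1 and IL-36 receptors share, had 3 shared peaks and 0.470 and 0.432 RPM per kb, below the median gene. Il1rapl1 and Il1rapl2 are very long genes, which gives a peak more room, and both lie on chromosome X. They had 0.193 and 0.192 RPM per kb in library 1, above only 12.5% of genes each. In library 2 they had 0.228 and 0.254 RPM per kb, above 15.1% and 16.7% of genes. Of the 11 ligands and soluble binders 7 had a shared peak, near the 54.8% of all genes. Il33, which encodes the ligand of ST2, had 1, with 0.691 and 0.601 RPM, and Il18, the ligand of the IL-18 receptor, had 1, with 0.790 and 0.881 RPM. Il18bp, the soluble inhibitor of IL-18, had 0.

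Of the 17 signalling genes 13 had a shared peak in their territory, beside the 54.8% of all genes. Peli1, an E3 ubiquitin ligase of the pathway, had 9, with 1.01 and 0.943 RPM per kb. Nfkb1, the precursor of the NF-κB subunit p50, had 8, with 1.19 and 1.22 RPM per kb, above Il1rl1 in both libraries. Traf6, the ligase downstream of the receptors, had 4. Myd88, Tab1, Rela and Casp1 had 0, and lower binding there was not detectable at this depth.

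At the TH2 cytokine locus, given for scale, Il4 had 2.04 and 1.91 RPM per kb and Il13 2.09 and 2.06, above every member of the cluster, and their tallest shared peak reached 5.43 and 5.53 RPM. Il5 had 1.04 and 1.01 RPM per kb, close to Il1rl1. Among 8 receptors of the common gamma family 7 had a shared peak, beside 54.8% of all genes, with 0.712 to 1.37 RPM per kb in library 1 and 0.677 to 1.36 in library 2, and Il15ra, with 0.687 and 0.604, had 0. Il2ra, the high-affinity IL-2 receptor chain, had 1.37 and 1.19 RPM per kb. The genes most like Il1rl1 in density in both libraries, among 1310 with 4 to 6 shared peaks, were Gna11, Rab11fip1 and Ptpn5. The larger of their 2 absolute log2 ratios to Il1rl1 was 0.02, 0.04 and 0.04.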

How the data were processed

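Gata3 ChIP-seq (ChIPmentation, single 50-base reads) of 2 TH2 libraries was analysed. According to the study's methods the authors mapped them with Bowtie2 2.3.5.1 onto GRCm38 and kept uniquely mapped reads. The submitters' processing notes also list MACS2 (version 2.1.2), with no role stated. The authors deposited 1 line per read, with the mapping quality as its score (22 to 44), which does not measure binding. In the deposited lines 0 reads shared a 5′ end and strand within a library, so duplicates had been removed, which limits how high a peak can rise.

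Read 5′ ends on chromosomes 1 to 19, X and Y (40504814 and 24959052 reads) were moved 100 bp towards 3′ and counted in 200-bp windows every 50 bp, a mean of 2.97 and 1.83 reads. RPM means reads scaled per 1000000 of these reads. Windows passing the exact Poisson test at q 0.01 (Benjamini-Hochberg adjustment) were joined within 100 bp. Neighbouring windows overlap, so their tests are not independent, and a peak's own reads are part of the mean its fold is taken over. Peaks overlapping by 1 bp were shared and given to genes by the library 1 summit. Introns were numbered in the transcript with most exons. Peak calling was tested on simulated data. P-values of both exact tests cover counting error only, not the spread between mice or cultures.

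The named genes are the members, their receptors, ligands and signalling genes, neighbours within 200 kb, the TH2 cytokine and common gamma genes, markers, and the 3 genes closest to Il1rl1 in density. The members and lists were chosen with earlier results of these data known. Alternatives were other thresholds, windows, backgrounds, mapping quality, thinning, regions, motifs and single libraries. Python 3.11.15, NumPy 2.4.6, SciPy 1.17.1 and Matplotlib 3.10.9 were used.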

Additional observations from a re-analysis of the deposited data

How the results depend on the processing

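The number of shared peaks in the cluster was 16. It was 4 at q 1e-10, 2 with a fold of at least 5, 10 with 100-bp windows and 26 with a 50-kb background in place of the 5-kb and 10-kb means, and between 14 and 19 with 400-bp windows, a mapping quality of at least 30, summits within 100 bp or library 1 thinned. In single libraries it was 17 (library 2) to 34 (library 1). The cause of these changes was not tested. The number of members with a peak was 6, and 3 with a fold of at least 5, and it was 5 or 6 under the other alternatives. The ratio of Il1rl1 to the next member, as a mean of the libraries, was 1.35. It turned to 0.633 in the gene body alone and 0.922 with 50 kb either side, was 1.09 with 10 kb either side and 1.29 per unique position, and ran from 1.31 to 1.39 in single libraries. The share of summits with WGATAR, 81.25%, was 43.75% within 50 bp and 25% for AGATAA alone, below the 46.8% and 40.8% of all shared summits, and 73.5% to 82.4% in single libraries. The count of peaks that differed between the libraries was 0 by summit window and 4 by whole peak. Over the 8 alternatives that used both libraries the single peaks kept their call in 89 cases and lost it in 39; the peak in Il18r1 intron 3 was called in all 8. The counts of single members moved by over 1.5 times in 33 of their alternatives and by no more than that in 45. In library 1 alone Il1r2 had 5 peaks, Il1r1 8, Il1rl2 6, Il1rl1 8, Il18r1 6 and Il18rap 7. In library 2 alone these genes had 2, 4, 3, 5, 3 and 4, in the same order. At a fold of at least 5 Il1r2, Il1rl2 and Il18rap had 0 shared peaks and the other members 1 each. The shares among genes of like length were not recounted under the alternatives. No paired analysis was possible because both libraries belong to the same condition. Library 1 thinned to the 24959052 reads of library 2 had 46807 peaks over the genome and library 2 had 28204. A peak called in library 1 alone is not shown to be absent from library 2.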

Other observations

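The genes flanking the cluster differed from each other. Map4k4, a kinase gene on the Il1r2 side, had 5 shared peaks in its territory, 4 of them in the gene body, and 0.713 and 0.737 RPM per kb in libraries 1 and 2, above 91.2% and 93.6% of genes. On the Il18rap side the sodium-proton exchanger genes Slc9a4 and Slc9a2 had 1 and 2 shared peaks. Slc9a4 had 0.483 and 0.448 RPM per kb and Slc9a2 0.488 and 0.488, near or below the median gene at 0.500 and 0.488. The one shared peak in the Slc9a4 territory, of 0.420 and 0.441 RPM, was also the fourth peak of the Il18rap territory.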
